A study of Drosophila melanogaster with 8 samples.

Results

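Eig71Ed, Eig71Ee, Eig71Ef, Eig71Eg, Eig71Eh and Eig71Ei are 6 neighbouring genes of the Eig71E cluster of Drosophila melanogaster, the ecdysone-induced genes of the late puff at cytological position 71E on chromosome arm 3L. They are 6 of the 15141 genes counted in each library, found by symbol, and all 6 were in every file. They were chosen by their counts in the mutants against wild type, where the cluster rose steeply, and not by any independent list. Their levels against wild type are therefore given as a description, without a test, and the tests compare one mutant group with another.

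RNA was measured in pooled heads of late pupae, 150 heads per library, collected 73 to 90 h after puparium formation. The study concerns dTDP-43, the fly counterpart of the RNA-binding protein TDP-43, encoded by TBPH. Each of the 4 groups had 2 libraries. The deficiency genotype, dTDP-43Δ142/Df(2R)106, carried the deletion allele Δ142 over a chromosomal deficiency of arm 2R, and the 2-deletion genotype, dTDP-43Δ23/Δ142, carried a pair of deletion alleles; both are labelled loss of function. The gain-of-function libraries are labelled act5c>dTDP-43, a transgene under the Act5C driver, which is active in most fly tissues. The wild-type libraries are titled Canton S and w1118, and their genotype label names w1118 only. No label says whether the mutants shared the wild-type background or whether a group's libraries were made from separate crosses. A difference in background and a difference in genotype cannot be told apart here, and p-values measure the spread between libraries, which may be technical.

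The Eig71E genes encode small secreted peptides. They are a classic set of late ecdysone targets: a pulse of the moulting hormone first induces transcription factors such as those of the Broad gene (br) and Eip74EF, and these then switch on the cluster in the salivary glands of the prepupa. Eig71Ee differs from its neighbours: it encodes a larger mucin-like protein that has been found in salivary glands and in blood cells and takes part in haemolymph clotting. In a Release 6 annotation the cluster holds 11 genes, Eig71Ea to Eig71Ek, in alphabetical order along the arm. Of these, 10 lie in 5 divergent pairs, with the starts of the pair facing each other: Eig71Ea with Eig71Eb, Eig71Ec with Eig71Ed, Eig71Ef with Eig71Eg, Eig71Eh with Eig71Ei, and Eig71Ej with Eig71Ek. Eig71Ee stands alone between the Eig71Ec/Eig71Ed pair and the Eig71Ef/Eig71Eg pair. None of the 11 overlaps another gene in that annotation. The cluster is on another chromosome than the deficiency.

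Levels are given as CPM (counts scaled to library size). Library totals lay between 716027 and 1302855 counts. The limit that 3 counts set lay between 2.32 and 4.29 CPM in a library. The targeted gene did not separate the labelled groups: TBPH had 41 and 28 counts in deficiency heads, 47 and 57 in 2-deletion heads, 68 and 42 in gain-of-function heads, and 43 and 40 in wild-type heads. Against wild type, its log2 fold change by edgeR's quasi-likelihood method (Benjamini-Hochberg adjusted) was -0.38 for loss of function (95% interval -0.95 to 0.20, adjusted p = 0.468) and -0.18 for gain of function (-0.83 to 0.48, adjusted p = 0.794). The TBPH counts thus bear out neither label. How much of the gene the deletions remove is not stated, so counts over the whole gene may not check them. The neuronal genes elav, brp and syt were counted in every library, with at least 61 counts of each.

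Every member was higher in every mutant library than in both wild-type libraries. Summed over the 6 genes, the cluster members had 1616 and 657.6 CPM in the deficiency genotype, 229 and 397 CPM in the 2-deletion genotype and 353 and 358 CPM in the libraries labelled gain of function, against 32.4 and 12.9 CPM in wild type. The 6 mutant libraries thus lay far above the wild-type ones, and the deficiency libraries lay highest, replicate 1 above replicate 2. The group means were 1137 ± 677 CPM in the deficiency genotype, 313 ± 119 CPM in the 2-deletion genotype, 355 ± 3.62 CPM in gain of function and 22.6 ± 13.8 CPM in wild type (SD, n = 2 each). From pooled counts, the members were 47.1-fold higher in the deficiency genotype than in wild type (95% exact counting interval 34.1 to 67.1). They were 13.4-fold higher in the 2-deletion genotype (9.65 to 19.2) and 15.0-fold higher in gain of function (10.8 to 21.5). These intervals cover counting error only, not the spread between libraries.

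The wild-type libraries set the size of these folds, because they held 28 and 9 counts of the members. Without wild-type replicate 1 the folds were 86.7, 24.7 and 27.6 for the deficiency, 2-deletion and gain-of-function groups. Without wild-type replicate 2 they were 34.4, 9.80 and 10.96. The pattern of a gene above wild type in all 6 mutant libraries is not rare in these data: 1083 of the 9252 genes with enough counts for testing (11.7%) had it, and the 3 mutant groups share the same 2 wild-type libraries. All 6 members had it by the choice that was made of them, so nothing is read from that count. More cells of a type and more RNA per cell cannot be told apart in such bulk libraries.

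The 3 members with the most counts were Eig71Ed, Eig71Ef and Eig71Eg, all small peptide genes. Eig71Ef had 649.8 and 223 CPM in the deficiency genotype, 89.7 and 163 CPM in the 2-deletion genotype and 175 and 155 CPM in gain of function, against 15.0 and 5.71 CPM in wild type. The gain-of-function libraries were close to each other and inside the range of the other mutant libraries. From pooled counts, Eig71Ef was 39.3-fold higher than wild type in the deficiency genotype (95% counting interval 24.4 to 67.8), 11.8-fold higher in the 2-deletion genotype and 15.3-fold higher in gain of function. Eig71Eg, its divergent partner, had 370.1 and 189 CPM in the deficiency genotype, 47.0 and 82.1 CPM in the 2-deletion genotype and 85.2 and 70.3 CPM in gain of function, against 6.94 and 1.43 CPM in wild type. It put the 6 mutant libraries in the same order as Eig71Ef did. Its fold over wild type was 61.6 in deficiency heads (29.7 to 154), 14.6 in 2-deletion heads and 17.5 in gain-of-function heads. The wild-type side of those folds was 7 counts, and with wild-type replicate 1 left out it was 1 count, giving 193-fold in the deficiency genotype with an interval of 34.4 to 7632.

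Eig71Ed, the partner of Eig71Ec, had 392 and 161 CPM in the deficiency genotype, 27.4 and 108 CPM in the 2-deletion genotype and 81.9 and 36.1 CPM in gain of function, against 10.4 and 5.71 CPM in wild type. It was the member whose lowest mutant library came nearest to wild type among the 3: 2-deletion replicate 1 was 2.63 times the higher wild-type library, while the same ratio was 5.97 for Eig71Ef and 6.77 for Eig71Eg. Its pooled fold over wild type was 32.6 in deficiency heads (18.9 to 61.7), 8.36 in 2-deletion heads and 7.28 in gain-of-function heads.

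Eig71Eh and Eig71Ei, the fourth divergent pair, had no count in either wild-type library and were counted in all 6 mutant libraries. Eig71Eh had 121 and 41.8 CPM in the deficiency genotype, 41.9 and 27.1 CPM in the 2-deletion genotype and 8.92 and 49.9 CPM in gain of function. Eig71Ei had 67.5 and 33.0 CPM in the deficiency genotype, 22.2 and 11.6 CPM in the 2-deletion genotype and 0.81 and 44.4 CPM in gain of function. The libraries labelled gain of function stood far apart for this pair: replicate 1 held 11 counts of Eig71Eh and 1 of Eig71Ei, and replicate 2 held 54 and 48. Against a limit of 3 counts over both wild-type libraries, Eig71Eh was at least 41.4-fold higher in the deficiency genotype, 17.8-fold in the 2-deletion genotype and 14.6-fold in gain of function. The same bounds for Eig71Ei were 25.8-fold, 8.69-fold and 11.04-fold, the last of which rests on 1 of the 2 gain-of-function libraries. All these bounds take the mutant counts as exact. They were lower with wild-type replicate 1 or 2 left out, down to 3.89-fold and 4.80-fold for Eig71Ei in the 2-deletion genotype.

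Eig71Ee, the mucin-like gene, was scarce. It had 13 and 9 counts in deficiency heads, 1 and 7 in 2-deletion heads and 1 and 2 in gain-of-function heads, against 0 and 0 in wild-type heads. It did not pass the filter on low counts and entered no test. Against 3 counts over both wild-type libraries, Eig71Ee was 6.60-fold higher in the deficiency genotype and 1.70-fold higher in the 2-deletion genotype. These values take the mutant counts as exact. With wild-type replicate 1 or 2 left out, Eig71Ee was at 2.95-fold and 3.65-fold in the deficiency genotype. In the 2-deletion genotype it was then at 0.76-fold and 0.94-fold, so a rise of Eig71Ee there is not shown. In gain of function its 3 counts equal the limit used for a count of 0, so no fold is given.

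**Figure D1:**
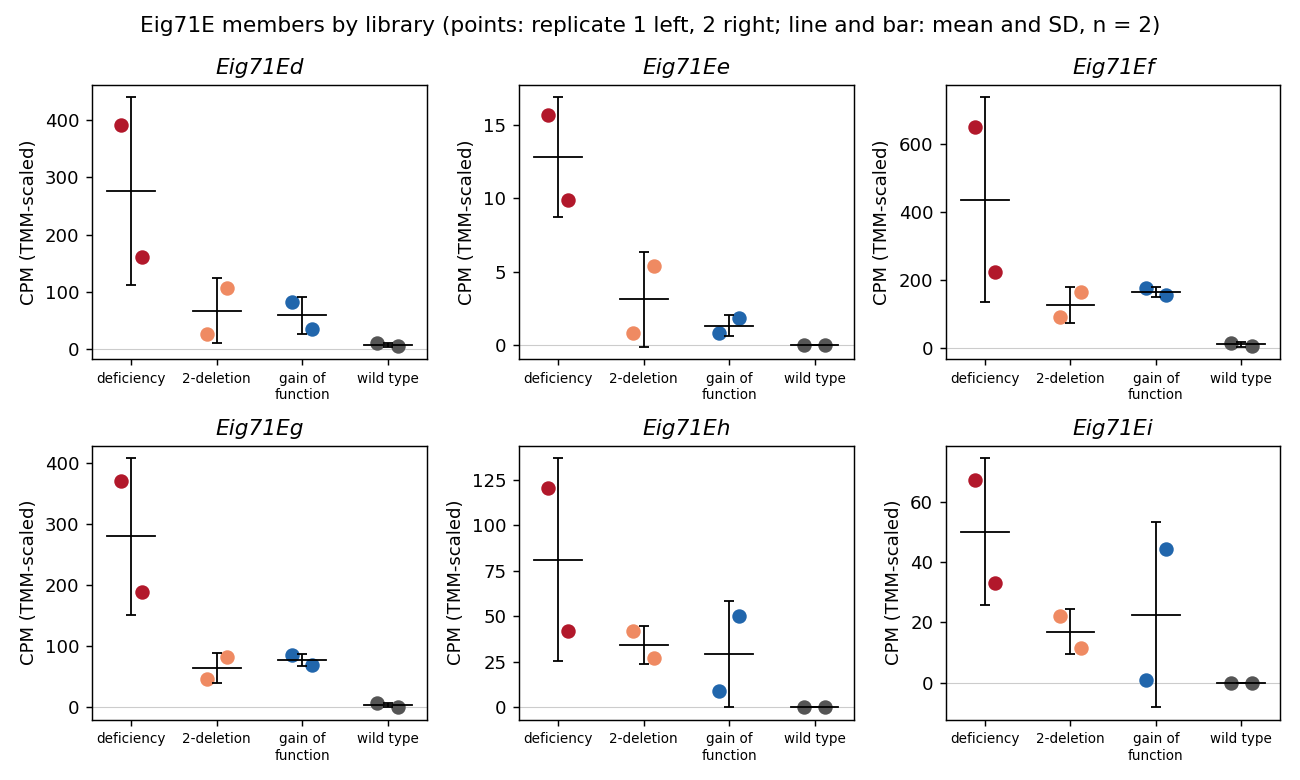
Level of each of the 6 members (CPM, TMM-scaled, linear axes that differ between panels) in the deficiency, 2-deletion, gain-of-function and wild-type groups, as labelled. Points are libraries (replicate 1 left, 2 right), and the line and bar are the mean and SD of 2. Deficiency replicate 1 is the highest point in each panel, from 15.7 CPM for Eig71Ee to 649.8 CPM for Eig71Ef, and the wild-type points lie at or near 0.

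To compare the members with each other, CPM were divided by exon length from the Release 6 annotation, which gives 413 to 530 nt for the peptide genes among them and 1486 nt for Eig71Ee. In the deficiency genotype Eig71Ef had 1039 ± 718 CPM per kb, Eig71Eg 677 ± 310, Eig71Ed 666 ± 394, Eig71Eh 183 ± 126, Eig71Ei 94.8 ± 46.1 and Eig71Ee 8.60 ± 2.75 CPM per kb (SD, n = 2 each). Of the neighbours in that order, only Eig71Ei and Eig71Ee differed by more than the sum of their SDs. Eig71Ef was highest and Eig71Ee lowest per length in gain of function too, with 394 ± 33.3 and 0.90 ± 0.49 CPM per kb. In the 2-deletion genotype Eig71Ef had 302 ± 124 CPM per kb and Eig71Ee 2.11 ± 2.17 CPM per kb. In wild type Eig71Ef had 24.7 ± 15.7, Eig71Ed 19.4 ± 8.01 and Eig71Eg 10.1 ± 9.44 CPM per kb, which overlap, and the other 3 members were at 0.

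The other 5 genes of the cluster, Eig71Ea, Eig71Eb, Eig71Ec, Eig71Ej and Eig71Ek, were also higher in all 6 mutant libraries than in both wild-type libraries. Since the cluster as a whole drew the choice, their values against wild type are likewise a description without a test. Eig71Ec had 747 and 324 CPM in the deficiency genotype, 94.0 and 239 CPM in the 2-deletion genotype and 177 and 167 CPM in gain of function, against 19.7 and 11.4 CPM in wild type. Eig71Ek had 327 and 154 CPM in the deficiency genotype, 153 and 71.3 CPM in the 2-deletion genotype and 124 and 548 CPM in gain of function, against 2.31 and 1.43 CPM in wild type. Eig71Ek was the only gene of the cluster with its highest level outside deficiency replicate 1. With 3 counts in wild type in all, its pooled folds were 123 in the deficiency genotype (95% counting interval 41.9 to 600.1), 57.4 in the 2-deletion genotype (19.4 to 280.2) and 168 in gain of function (57.3 to 817). Eig71Ej had the smallest fold of these 5 genes in the deficiency genotype, 10.8, with 5.96 in 2-deletion heads and 10.3 in gain-of-function heads. Its wild-type libraries held 17 counts each.

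Genes on both sides of the cluster overlapped between mutants and wild type where they had enough counts to be tested. The 4 counted genes to the left of Eig71Ea, CG7650, CG13449, CG42334 and CG7372, had pooled levels in the 6 mutant libraries of 0.98 to 1.44 times wild type. CG7372, next to Eig71Ea, had 56 and 72 counts in deficiency heads, 105 and 74 in 2-deletion heads and 120 and 76 in gain-of-function heads, against 71 and 52 in wild-type heads. To the right of Eig71Ek, only pgant8 had enough counts to be tested, with 22 and 27 counts in deficiency heads, 26 and 20 in 2-deletion heads and 27 and 28 in gain-of-function heads, against 21 and 9 in wild-type heads. The other 3 genes on that side had at most 11 counts in a library. Pooled levels in the mutant libraries were 1.20 times wild type for pgant8, 4.32 times for CG7304, next to Eig71Ek, on 19 counts in all, and 2.88 times for CG34452 on 26 counts. At an adjusted p of 0.05 (Benjamini-Hochberg), edgeR's quasi-likelihood test called 0 of the 5 flanking genes tested against wild type, while it called 2.19% of all genes in loss of function and 3.11% in gain of function. These flanks were chosen after the values of the cluster were known, and 4 genes that a later annotation places here, 1 of them inside the cluster, were not analysed here.

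**Figure D2:**
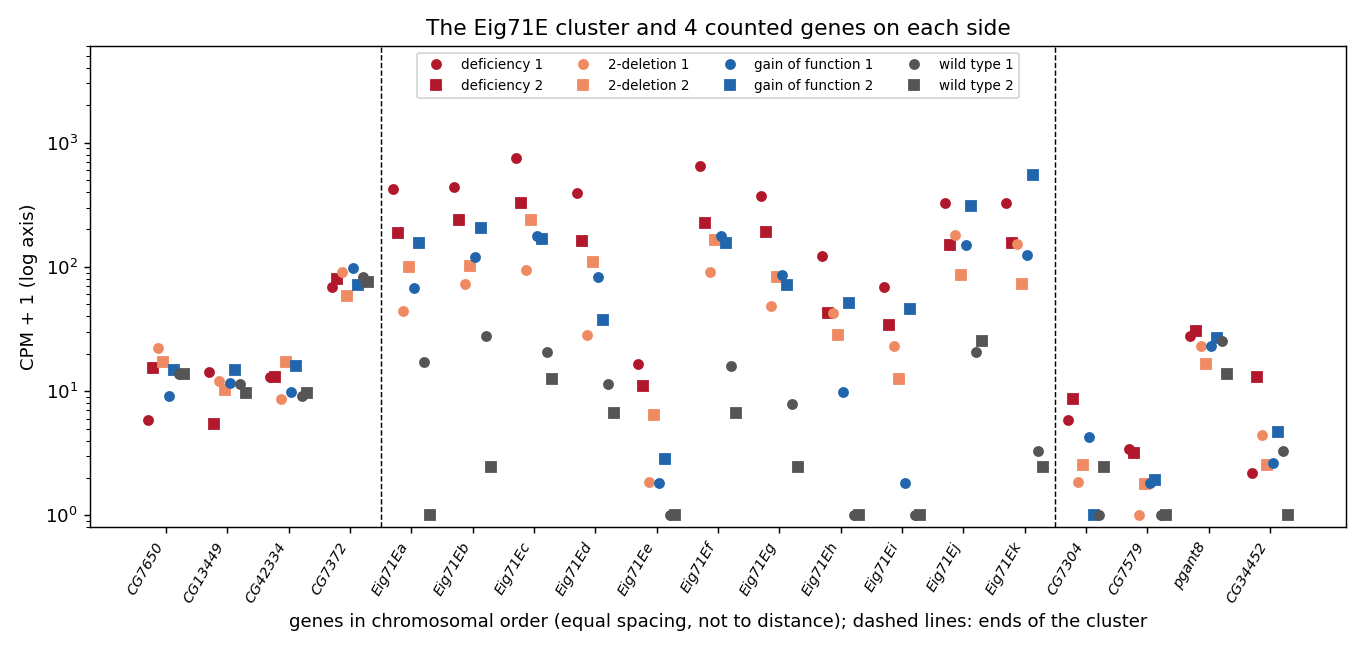
Level of the 11 Eig71E genes and 4 counted genes on each side in their chromosomal order (CPM plus 1, log axis; equal spacing, not to distance). Each point is a library, coloured by group with circles for replicate 1 and squares for replicate 2. Between the dashed lines the 6 mutant libraries lie above the wild-type ones for each of the 11 genes, for Eig71Ee and Eig71Ei in places by 1 count. Outside them the groups overlap for the genes with enough counts.

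The make-up of the cluster differed between libraries of the same group. Eig71Ea to Eig71Eg together held 78.3% and 77.8% of all Eig71E counts in deficiency heads, 48.6% and 80.3% in 2-deletion heads and 71.4% and 45.3% in gain-of-function heads, against 81.2% and 50.0% in wild-type heads. The 95% exact binomial interval was 45.2 to 51.9% in 2-deletion replicate 1 and 78.0 to 82.5% in replicate 2. Both intervals cover counting error only, and replicates differed by more than that over genes in general: chi-square per degree of freedom between the replicates, over genes with at least 10 counts, was 6.08 in the deficiency genotype, 3.09 in the 2-deletion genotype, 9.52 between the gain-of-function libraries and 3.17 between the wild-type ones. This split into left and right genes was made after seeing the values and is a description only. In the 2-deletion genotype the 7 genes from Eig71Ea to Eig71Eg were higher in replicate 2 and the 4 genes from Eig71Eh to Eig71Ek were higher in replicate 1. Eig71Ed was 3.94 times as high in replicate 2 as in replicate 1 (95% counting interval 2.67 to 5.98), and Eig71Ej was 0.48 times as high (0.38 to 0.60).

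In the libraries labelled gain of function Eig71Ea and Eig71Eb, on the left, were higher in replicate 2, as Eig71Eh to Eig71Ek were. Eig71Ea was 2.31 times as high in replicate 2 as in replicate 1 (95% counting interval 1.76 to 3.05). Eig71Eb was 1.72 times as high (1.39 to 2.13) and Eig71Ej 2.08 times as high (1.73 to 2.51). Eig71Ei was 54.7 times as high in replicate 2 as in replicate 1 (95% counting interval 9.37 to 2206), Eig71Eh was 5.60 times as high (2.89 to 11.9) and Eig71Ek 4.42 times as high (3.69 to 5.32). Eig71Ed was 0.44 times as high in replicate 2 (0.30 to 0.64), and the intervals of Eig71Ec, Eig71Ee, Eig71Ef and Eig71Eg spanned 1. The close sums of 353 and 358 CPM in this group thus joined members that moved in opposite directions between its replicates. In the deficiency genotype the replicates differed mainly in amount: replicate 2 had 0.41 times the summed members of replicate 1 (0.37 to 0.45), and the ratios of the 11 genes lay between 0.34 and 0.63.

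Of the ratios taken within a pair, all but that of Eig71Ei to Eig71Eh spread less than the ratios taken between pairs. The ratio of Eig71Eg to Eig71Ef counts lay between 0.45 and 0.85 over the 6 mutant libraries, a spread of 1.87-fold. The ratio of Eig71Eh to Eig71Ef, which are in different pairs, lay between 0.051 and 0.47, a spread of 9.16-fold. Its low end rests on 11 Eig71Eh counts in gain-of-function replicate 1. The ratio of Eig71Ed to Eig71Ef, also in different pairs, spread 3.10-fold, near the 2.42-fold of Eig71Ed to its partner Eig71Ec. The pair Eig71Ei and Eig71Eh spread 9.78-fold, which rests on the single Eig71Ei count of gain-of-function replicate 1. The pairs Eig71Eb to Eig71Ea and Eig71Ek to Eig71Ej spread 1.78-fold and 2.12-fold, and Eig71Ek to Eig71Ef, in different pairs, spread 8.10-fold. The 8 ratios that were taken share the counts of a few genes and were not tested.

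**Figure D3:**
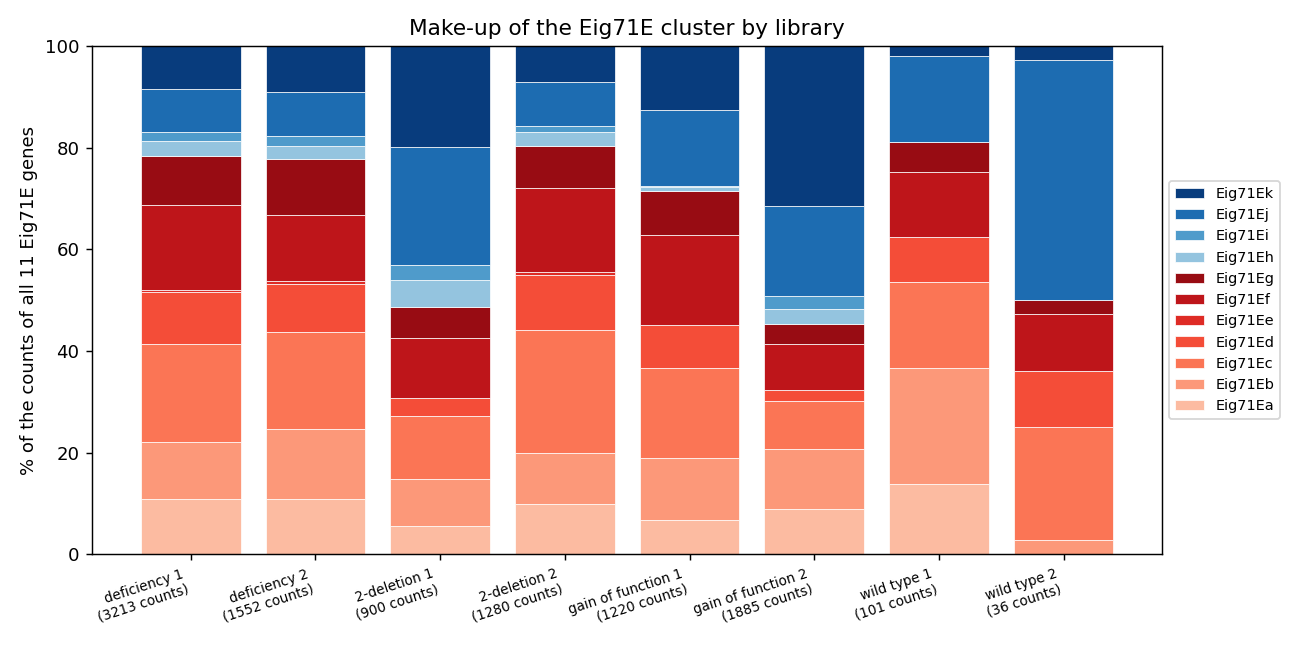
Share of each Eig71E gene in all counts of the 11 genes (percent, stacked to 100) in the 8 libraries, with the number of counts under each bar. Reds are Eig71Ea to Eig71Eg and blues Eig71Eh to Eig71Ek. The red part is 78.3% and 77.8% in the deficiency libraries but 48.6% in 2-deletion replicate 1 and 45.3% in gain-of-function replicate 2, and the wild-type bars rest on 101 and 36 counts.

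Comparing mutant groups with each other asks whether the cluster had the same level in them. The choice of members rested on their rise over wild type, which was largest in the deficiency genotype. These comparisons are therefore not independent of the choice. All 5 tested members had positive log2 fold changes in the deficiency genotype against the 2-deletion genotype, with a median of 1.78, against a median of 0.01 over all genes tested. None passed edgeR's quasi-likelihood test at an adjusted p of 0.05, and edgeR called 0% of all 9252 genes in this comparison. The largest was that of Eig71Eg, at 2.11 (SE 0.40, 95% interval 1.20 to 3.01, edgeR adjusted p = 0.289). Eig71Ef was at 1.78 (0.32 to 3.24, edgeR adjusted p = 0.458) and Eig71Ed at 2.02 (-0.05 to 4.09, edgeR adjusted p = 0.537). Eig71Eh was at 1.23 and Eig71Ei at 1.57, with intervals that reach from -1.12 to 3.58 and from -2.16 to 5.29. At an unadjusted p under 0.05 edgeR had 2 of the 5 members and 9.39% of all genes.

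These values depend on deficiency replicate 1. Without it, the log2 fold change against the 2-deletion genotype was 1.55 for Eig71Eg (edgeR adjusted p = 0.157), 0.82 for Eig71Ef, 1.24 for Eig71Ed and 0.29 for Eig71Eh. Without deficiency replicate 2, edgeR called Eig71Eg (2.55, adjusted p = 0.0163) and Eig71Ef (2.39, adjusted p = 0.0416). DESeq2 called Eig71Eg with all libraries (2.12, adjusted p = 0.00186), and it called 8 genes (0.0865%) in this comparison. Both deficiency libraries lay above the other 4 mutant libraries for Eig71Ed, Eig71Ee, Eig71Ef and Eig71Eg, and for Eig71Ea to Eig71Ec, but not for Eig71Eh to Eig71Ek. Of all genes tested, 10.2% had that pattern.

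The deficiency genotype against gain of function gave a like picture. The 5 members had log2 fold changes between 1.18 and 2.21, with a median of 1.48 against -0.01 over all genes. None was called by edgeR, which again called 0% of genes, and 2 members and 8.68% of genes had an unadjusted p under 0.05. Eig71Eg was at 1.84 (SE 0.39, 95% interval 0.94 to 2.74, edgeR adjusted p = 0.323) and was called by DESeq2 (1.85, adjusted p = 0.0160), which called 20 genes (0.216%). Without deficiency replicate 1 the log2 fold changes were 1.43 for Eig71Ed, 0.43 for Eig71Ef, 1.28 for Eig71Eg, 0.53 for Eig71Eh and 0.59 for Eig71Ei. Eig71Ei was at 1.18 with all libraries, at 0.17 without gain-of-function replicate 1 (edgeR adjusted p = 0.959) and at 5.75 without gain-of-function replicate 2, where edgeR called it (adjusted p = 0.0101). Eig71Eh was at 0.69 and 3.17 without the same libraries. Among the other genes of the cluster, Eig71Ej was at 0.05 and Eig71Ek at -0.48.

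The 2-deletion genotype and gain of function were closest. The members had log2 fold changes between -0.38 and 0.25, with an edgeR adjusted p of 0.999 for each and no unadjusted p under 0.05 among them, while 369 genes had one. The intervals were wide: -1.19 to 0.66 for Eig71Eg, -1.83 to 1.07 for Eig71Ef and -1.95 to 2.34 for Eig71Ed. A level 2-fold lower in the 2-deletion genotype lies inside each of them, and a level 2-fold higher lies inside those of Eig71Ef and Eig71Ed, so equal levels are not shown. DESeq2 called 0 of the genes tested (0%), with 149 at an unadjusted p under 0.05.

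**Figure D4:**
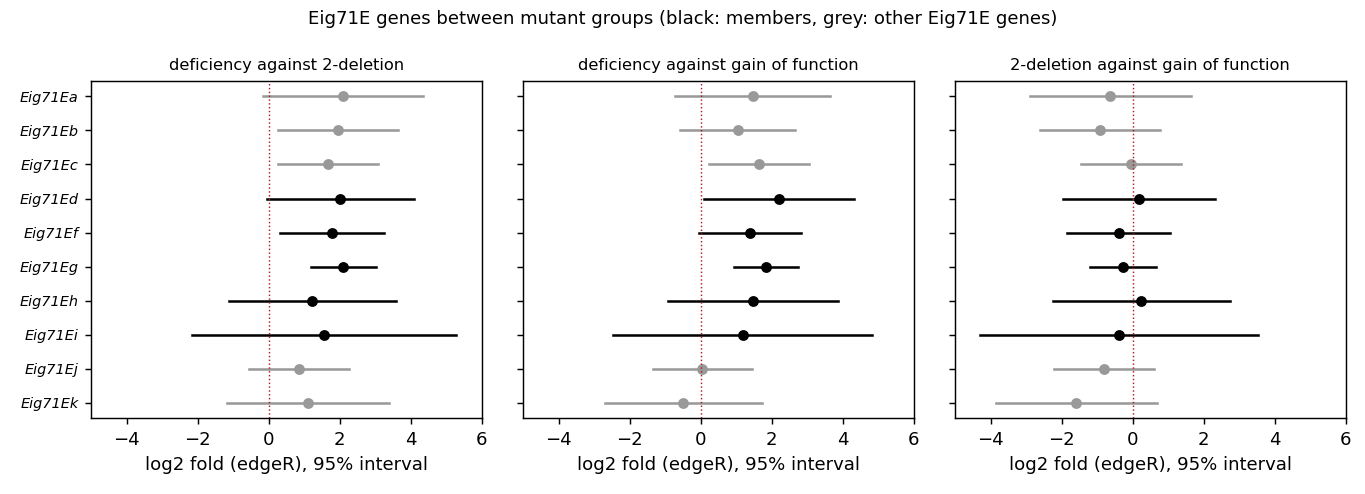
Log2 fold change of 10 Eig71E genes between mutant groups, from edgeR with 95% intervals (black: members; grey: other genes of the cluster; the dotted line marks no difference; the group named first is on top of the fold). The 5 members lie between 1.23 and 2.11 in the deficiency genotype against the 2-deletion genotype and between -0.38 and 0.25 in the 2-deletion genotype against gain of function.

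Another 2 lists of ecdysone pathway genes other than the cluster were read beside the members. Of 17 genes for the ecdysone receptor and the transcription factors it induces, edgeR called 0 in loss of function against wild type, where 0.616% of all genes were called higher, and 1 in gain of function, where 0.919% were. Their median log2 fold change was 0.29 in loss of function and 0.22 in gain of function, against 0.00 and 0.01 over all genes, and 7 of the 17 were higher in every mutant library than in both wild-type libraries, against 11.7% of all genes tested. The called gene was Eip93F, a transcription factor of late metamorphosis. It had 734 and 962 CPM in the deficiency genotype, 1021 and 922 CPM in the 2-deletion genotype and 980.5 and 1136 CPM in gain of function, against 579 and 601 CPM in wild type. In gain of function its log2 fold change was 0.84 (SE 0.20, edgeR adjusted p = 0.0417), and DESeq2 did not call it (adjusted p = 0.0658). That call was also lost without either 2-deletion library (edgeR adjusted p = 0.0793 and 0.0748).

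The direct regulators of the cluster were looked up after the values of the lists were seen. br had 223 and 314 counts in deficiency heads, 179 and 317 in 2-deletion heads and 162 and 373 in gain-of-function heads, against 60 and 70 in wild-type heads. The mutant libraries lay above the wild-type ones, but the spread was wide and edgeR called br in neither (log2 fold change 1.55, adjusted p = 0.145 in loss and 1.49, adjusted p = 0.184 in gain of function). DESeq2 called it in both (adjusted p = 0.00764 and 0.0302), where it called 1.85% and 2.51% of all genes. Without gain-of-function replicate 1 edgeR called br in gain of function (2.04, adjusted p = 0.00747), and without replicate 2 its log2 fold change was 0.65. In loss of function edgeR called it without either gain-of-function library (adjusted p = 0.00507 and 0.00556). Eip74EF was level, with a log2 fold change of -0.09 in loss of function (edgeR adjusted p = 0.825) and -0.15 in gain of function (0.727). EcR, the ecdysone receptor, was at 0.29 and 0.38, without a call.

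Of 16 tested genes among 17 other ecdysone-induced or ecdysone-inhibited genes, edgeR called 1 for loss of function and 2 for gain of function, all higher than wild type, against 0.616% and 0.919% of all genes called higher. Cyp18a1, the cytochrome P450 that inactivates the moulting hormone, had 68.7 and 53.9 CPM in the deficiency genotype, 52.1 and 57.3 CPM in the 2-deletion genotype and 81.1 and 52.7 CPM in gain of function, against 20.8 and 21.4 CPM in wild type. Its log2 fold change was 1.45 in loss of function (SE 0.29, edgeR adjusted p = 0.0322) and 1.66 in gain of function (SE 0.31, edgeR adjusted p = 0.0204). Edg91, an ecdysone-dependent cuticle gene, had 49.5 and 63.8 CPM in gain of function, against 9.26 and 20.0 CPM in wild type, and was called there (1.98, SE 0.42, edgeR adjusted p = 0.0309). Without either wild-type library edgeR called no gene of these lists, while the fold changes of Cyp18a1 were 1.44 and 1.48 in loss of function and 1.66 and 1.71 in gain of function (adjusted p = 0.121 to 0.230). The Cyp18a1 call was lost in loss of function without either 2-deletion library (edgeR adjusted p = 0.0689 and 0.0907) and in gain of function without its replicate 1 (1.32, adjusted p = 0.0543).

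2 genes of this list, named after their values were seen, varied between libraries in another order than the cluster. Edg84A, a pupal cuticle gene, had 50.6 and 206 CPM in the deficiency genotype, 3.42 and 92.2 CPM in the 2-deletion genotype and 9.73 and 285 CPM in gain of function, against 3.47 and 0 CPM in wild type. Edg78E, another cuticle gene, had 135 and 475 CPM in the deficiency genotype, 51.3 and 172 CPM in the 2-deletion genotype and 52.7 and 393 CPM in gain of function, against 40.5 and 25.7 CPM in wild type. Both were highest in replicate 2 of each mutant group, while the members were highest in deficiency replicate 1, and edgeR called neither against wild type (adjusted p = 0.398 to 0.456).

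Markers of tissues in which the cluster or its neighbours in the pathway are known to act were summed per library. The salivary glue genes, defining products of the larval gland, were near the limit of counting: 9 of the 10 had at most 7 counts in any library. Sgs7, the tenth, had 12 and 26 counts in deficiency heads, 0 and 1 in 2-deletion heads and 1 and 0 in gain-of-function heads, against 2 and 1 in wild-type heads. None of the 10 was higher in all mutant libraries than in both wild-type libraries. Their sum was 32.6 and 44.0 CPM in the deficiency genotype, 6.84 and 17.0 CPM in the 2-deletion genotype and 8.11 and 7.40 CPM in gain of function, against 9.26 and 7.14 CPM in wild type.

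The 10 fat body genes were higher in sum in every mutant library than in both wild-type libraries, but in another order than the members. They had 41594 and 56186 CPM in the deficiency genotype, 33688 and 38206 CPM in the 2-deletion genotype and 38672 and 48767 CPM in gain of function, against 31358 and 28532 CPM in wild type. Deficiency replicate 2 was the highest, while the members were highest in deficiency replicate 1. None of the 10 genes was by itself higher in every mutant library than in both wild-type libraries. Fbp1 and RfaBp weighed most, with 19030 and 15034 of the 41594 CPM in deficiency replicate 1. Of the 6 tested, edgeR called Fbp2 lower in loss of function (log2 fold change -0.95, adjusted p = 0.0489), where it called 2.19% of all genes, and called no other. Fbp1 is also on the ecdysone list, and Lsp2 had at most 2 counts in a library. The 28 digestive enzyme genes of the gut summed to 97.7 and 143 CPM in the deficiency genotype, 24.8 and 99.2 CPM in the 2-deletion genotype and 29.2 and 115 CPM in gain of function, against 16.2 and 21.4 CPM in wild type. In that list 5 genes, Jon66Cii, Jon99Cii, Jon99Fii, gammaTry and deltaTry, were at 0 in every library, and edgeR called none of the 4 tested. The part of either list in the result on the members was not tested.

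Blood cell genes did not separate the groups in sum: the 13 summed to 2503 and 2947 CPM in the deficiency genotype, 2445 and 2692 CPM in the 2-deletion genotype and 2685 and 2648 CPM in gain of function, against 2485 and 2873 CPM in wild type. In that sum fon and Ppn weighed most, with 898 and 506 of the 2503 CPM in deficiency replicate 1. Single genes went different ways: log2 fold changes were positive for 4 of 10 tested in loss of function and 6 in gain of function. Of these 10, 1 was higher in every mutant library than in both wild-type libraries, against 11.7% of all genes tested. It was fon, with 898 and 1369 CPM in the deficiency genotype, against 782 and 771 CPM in wild type, without an edgeR call. Hml had the largest log2 fold change of the 10 in loss of function, 1.12 (edgeR adjusted p = 0.143). It had 38.6 and 71.5 CPM in the deficiency genotype and 52.1 and 37.2 CPM in the 2-deletion genotype. In gain of function it had 26.8 and 33.3 CPM, and in wild type 13.9 and 32.9 CPM. Among the 10 tested, edgeR called Ppn lower in gain of function (log2 fold change -0.78, adjusted p = 0.0476), where it called 3.11% of all genes. The neuronal, glial and eye genes summed to 1074 and 1480.2 CPM in the deficiency genotype, 892 and 875 CPM in the 2-deletion genotype and 604 and 877 CPM in gain of function, against 1419 and 1197 CPM in wild type, with 0 of 10 called. The 19 antimicrobial peptide genes summed to 421 and 342 CPM in the deficiency genotype, 286 and 292 CPM in the 2-deletion genotype and 258 and 375 CPM in gain of function, against 223 and 303 CPM in wild type. Of the 9 tested, edgeR called Dpt higher in gain of function (2.02, adjusted p = 0.0225), where 0.919% of all genes were called higher.

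The genes whose pattern over libraries was most like that of the summed members were found by Pearson's r of log2 CPM among 9103 genes of sufficient level. CG33998 ranked first, both over the 6 mutant libraries alone (r = 0.997, Spearman's rank correlation 0.943) and over all 8 (r = 0.999, rank correlation 0.976). It had 289 and 109 CPM in the deficiency genotype, 31.6 and 63.5 CPM in the 2-deletion genotype and 61.6 and 54.6 CPM in gain of function, against 3.47 and 0 CPM in wild type. CG4151 was next among genes outside the cluster over 8 libraries (r = 0.991) and had r = 0.960 over the 6 mutant ones. It had 833 and 395 CPM in the deficiency genotype, 136 and 216 CPM in the 2-deletion genotype and 214 and 320.0 CPM in gain of function, against 10.4 and 5.71 CPM in wild type.

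Both genes were thus low in wild type and highest in deficiency replicate 1, as the members were. On the log2 scale used for r, the wild-type libraries are the 2 farthest from the median of the summed members. Likeness fell for several genes once they were left out. The gene lox had r = 0.961 over 8 libraries and 0.801 over 6, rgr had 0.979 and 0.850, CG34123 had 0.961 and 0.751, and snoRNA:Psi18S-525i had 0.960 and 0.721. Conversely CG30291, CG10508 and betaTub97EF, a beta-tubulin, had r between 0.984 and 0.986 over the 6 mutant libraries but 0.126, -0.229 and -0.455 over 8. All points share the scaling of a library, and 84 genes (0.923%) had an r of at least 0.9 over 8 libraries.

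Within the cluster, the likeness followed the left and right split. Eig71Ec had r = 0.984, Eig71Ea r = 0.930 and Eig71Eb r = 0.905 with the members over the 6 mutant libraries. Eig71Ej and Eig71Ek had r = 0.411 and r = 0.304, ranks 2162 and 2809 of 9103 genes. The sum is dominated by Eig71Ed, Eig71Ef and Eig71Eg, so it stands mainly for the left genes. The split was drawn from the same values, so this likeness restates it and adds no support.

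**Figure D5:**
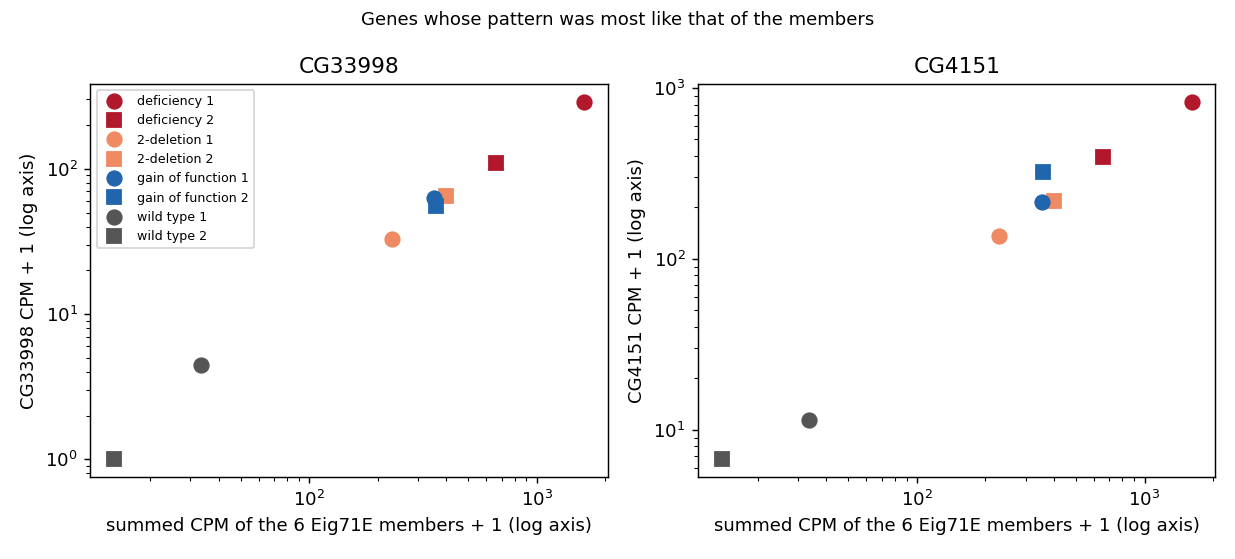
Level of CG33998 and CG4151 against the summed level of the 6 members in the 8 libraries (CPM plus 1, log axes on both sides; colour marks the group as labelled, circles replicate 1 and squares replicate 2). The wild-type points lie at the lower left, with 3.47 and 0 CPM for CG33998, and deficiency replicate 1 lies at the upper right with 289 CPM.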

How the data were processed

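Counts per gene were deposited by the authors for 8 libraries, 1 file each, and per the submitters' processing notes come from HTSeq and build dm3. Per the labels' protocols, total RNA was depleted of ribosomal RNA and sequenced as SOLiD whole-transcriptome libraries. The sources used here do not name versions, aligner, annotation or strand setting, so reads that near-identical family members share may have been split or lost. Groups follow the titles.

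One model with 4 group means (4 residual degrees of freedom) was fitted to all genes with edgeR 4.0.16 in R 4.3.3: filterByExpr (minimum count 10, minimum total 15, 9252 of 15141 genes kept), TMM scaling and the robust quasi-likelihood test with Benjamini-Hochberg adjustment, called at 0.05. CPM are TMM-scaled; log2 CPM use a prior count of 2. Folds against wild type are ratios of pooled CPM with exact Clopper-Pearson 95% counting intervals, or bounds against 3 counts over both wild-type libraries. The bounds take the mutant counts as exact. Alternatives were RLE size factors, no filter, DESeq2 1.42.0, a replicate block and leaving out each library. The code was tested on simulated data.

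Members and lists were chosen with earlier results of these data known. Named genes are the members, the other Eig71E genes, called pathway genes (at most 6 per list and comparison), and the 8 genes most like the members over 8 libraries and 5 over the 6 mutant ones, above a mean log2 CPM of 3. Gene order and exon lengths are from a Release 6 annotation, matched by symbol (14375 of 15141 symbols, 94.9%), and no coordinates or sequences are given because the builds differ.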

Additional observations from a re-analysis of the deposited data

Results flagged for a closer look

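Among the 4 loss-of-function libraries, Eig71Eh in deficiency replicate 1 stood apart from the others. It had 121 CPM there, against 41.8 CPM in deficiency replicate 2 and 41.9 and 27.1 CPM in the 2-deletion genotype. The gap to the nearest library was 0.842 of the whole range, above Dixon's 95% critical value for 4 values. The other 5 members and their sum did not pass it, with ratios of 0.39 to 0.76, and chance alone passes about 1 in 20 groups. The 4 libraries come from 2 genotypes.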

How the results depend on the processing

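The count of members called was 0 in each of the 3 comparisons between mutant groups with edgeR. With DESeq2 it was 1 in the deficiency genotype against the 2-deletion genotype, 1 against gain of function, and 0 in the 2-deletion genotype against gain of function. Leaving out a library gave 0 to 2, 0 to 1 and 0. Outside the cluster, the ecdysone list genes called in loss of function numbered 1 with all libraries, 2 without the filter, 2 with DESeq2 and 2 with the replicate block. In gain of function they numbered 3, and 5, 7, 5 and 0 to 5 under the same settings. These counts include the 5 other genes of the cluster, which made up 5 and 4 of the DESeq2 calls. RLE size factors left all these counts as they were. Same-numbered libraries deviated together with correlations of -0.04 to 0.17, so the numbers were not taken as pairs.

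Between the 2-deletion genotype and gain of function the sign turned when a library was left out: the log2 fold change ran from -1.14 to 0.92 for Eig71Ed, -0.75 to 0.076 for Eig71Eg, -0.54 to 1.90 for Eig71Eh and -1.40 to 4.15 for Eig71Ei. The cause was not tested. Where a library was left out, the other of its group was assumed to vary like the other groups. Of 252 values of single genes, 220 kept their direction and call, 14 lost a call, 12 gained one and 6 turned sign. Group means of the summed members without 1 library were 659 to 1638 CPM in the deficiency genotype, 226 to 396 CPM in the 2-deletion genotype, 354 to 357 CPM in gain of function and 12.7 to 32.0 CPM in wild type. Wild-type counts of 0 to 13 per member and library limit the members' folds.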
